A study of Homo sapiens with 12 samples.

Results

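The 10 inflammatory cytokines and chemokines TNF, IL1A, IL1B, IL6, LIF, CXCL1, CXCL2, CXCL3, CXCL8 and CCL20 were followed in the human ovarian carcinoma line SK-OV-3 on Illumina bead arrays of messenger RNA. They were taken by gene name, with older names such as IL8 for CXCL8 allowed, as every probe that the array annotation assigns to them. This gave 11 of the 47313 probes and 10 of the 20043 genes named on the array, with 2 probes for CXCL8 and 1 for each other gene. The 12 arrays form 4 groups of 3: cells with a scrambled control shRNA (shCTRL), cells with an shRNA against the transcription factor IRF-1 (shIRF1), and each of these after 24 hours of cisplatin (CDDP in the labels), a platinum compound that crosslinks DNA. All 4 groups thus carry an introduced shRNA, no group without one is described here, and the labels give no dose for the drug. Nothing in them states that the 3 samples of 1 group are separate cultures. The p-values therefore set group differences only against the spread among these samples, which may be technical.

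These genes encode secreted signals of inflammation. Stress, damage and ligands such as TNF and interleukin-1 activate the transcription factors NF-kB and AP-1, which bind short DNA words near the start of such genes, and the messages that follow are often short lived because proteins bound to their tails mark them for decay. TNF, interleukin-1 alpha (IL1A) and interleukin-1 beta (IL1B) stand at the top of the cascade and can induce the others. IL6 and LIF signal through the shared receptor subunit gp130. CXCL1, CXCL2, CXCL3 and CXCL8 attract neutrophils through the receptors CXCR1 and CXCR2, and CCL20 attracts cells that bear CCR6. In ovarian cancer IL6 and CXCL8 are known as products of the tumour cells themselves.

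The start regions of 5 of these genes are shown with their matches to a loose word of the NF-kB type. A match to this loose word need not be a site that NF-kB binds, and binding was not tested. Each is the stretch of 150 bases before the RefSeq start in GRCh38.p14, read along the gene's own strand, with every match to the NF-kB type word (GGG, any 5 bases, CC) on either strand in capitals. The stretches are chr4:73869243-73869392 on the plus strand for CXCL1, chr4:74099196-74099345 on the minus strand for CXCL2, chr4:74038690-74038839 on the minus strand for CXCL3, chr7:22727050-22727199 on the plus strand for IL6 and chr2:227813692-227813841 on the plus strand for CCL20.
CXCL1: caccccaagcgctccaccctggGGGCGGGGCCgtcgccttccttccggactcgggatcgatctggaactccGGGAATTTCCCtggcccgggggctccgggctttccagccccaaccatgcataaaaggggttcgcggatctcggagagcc
CXCL2: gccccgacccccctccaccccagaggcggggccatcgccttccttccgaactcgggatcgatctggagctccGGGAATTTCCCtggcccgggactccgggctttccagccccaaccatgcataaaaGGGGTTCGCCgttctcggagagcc
CXCL3: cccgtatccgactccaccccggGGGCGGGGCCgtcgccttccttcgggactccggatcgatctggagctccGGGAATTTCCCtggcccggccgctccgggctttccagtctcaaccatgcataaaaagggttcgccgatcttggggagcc
IL6: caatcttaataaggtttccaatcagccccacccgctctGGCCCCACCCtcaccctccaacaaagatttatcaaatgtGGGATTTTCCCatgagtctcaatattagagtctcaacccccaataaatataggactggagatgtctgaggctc
CCL20: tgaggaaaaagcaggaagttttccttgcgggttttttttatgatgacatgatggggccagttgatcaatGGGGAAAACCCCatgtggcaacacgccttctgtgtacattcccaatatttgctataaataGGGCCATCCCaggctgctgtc

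The stretches of CXCL1, CXCL2 and CXCL3, which lie on chromosome 4, are close copies of each other. CXCL1 and CXCL2 shared 88.8% of their aligned bases, CXCL1 and CXCL3 88.1%, and CXCL2 and CXCL3 86.3%, against 42.0% to 53.4% for the 33 other pairs among the 9 members with an entry in the promoter table. All 3 hold the word GGGAATTTCC at nearly the same place, from -79 to -70 in CXCL1 and CXCL3 and from -78 to -69 in CXCL2, counted back from the start. That word, on either strand, was found in 0.154% of the 27305 promoters of the table, in the 250 bases before the start. It was picked because these close copies share it, so its rarity is a description only. The other word picked in this way, GGGCGGGGCC in CXCL1 and CXCL3, was found in 6.26%. The looser form, with any 5 bases between GGG and CC, was in 7 of the 9 members (TNF, IL6, CXCL1, CXCL2, CXCL3, CXCL8 and CCL20) and in 53.5% of all promoters. The AP-1 word TGANTCA was in 2 of 9 (CXCL8 and IL1A, against 6.74% of all) and the C/EBP type word TTGCNNNAA in 1 (CCL20, against 7.89%). The IRF type word (GAAA, any 2 bases, GAAA) was in none of the 9, against 3.05% of all promoters. Some of these matches overlap each other, and all are matches of letters in a window.

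Between 18075 and 21126 probes were detected per array, where detected means a detection p-value under 0.05 against the negative controls of that array. Values below are log2 levels after background correction and quantile normalization, and on this scale the lowest detected probe of an array lay between 4.78 and 4.99. Keratins and other markers of the line (KRT7, KRT8, KRT19, EPCAM, PAX8 and ERBB2) were detected on all 12 arrays, and KRT18 on 11. Of 15 markers of leukocytes, endothelium and fibroblasts, 14 are on the array and 5 were detected on at least 3 arrays: CD68 and COL1A1 on all 12, CD14 on 10, ITGAM on 6 and PECAM1 on 3. Of the rest, 4 were detected on no array, CD3E among them, and PTPRC on at most 1. Whether cells other than the line were present was not tested. IRF1, the target of the shRNA, was not lower where the label names it: 8.59, 8.14 and 8.20 where labelled shIRF1 against 8.30, 8.51 and 7.84 under shCTRL (difference 0.10, limma adjusted p = 0.902). The samples are therefore called arrays labelled shIRF1. With CDDP its level was 9.97, 10.38 and 9.38 under shCTRL against 8.94, 9.08 and 9.26 with the shIRF1 label (difference -0.82, limma adjusted p = 0.0811).

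IL6, CXCL1, CXCL2, CXCL8 and IL1A were detected on all 12 arrays. CCL20 and LIF were detected on 11, each missing only from shCTRL array 1. TNF was detected on 9, every array except the 3 of shCTRL without CDDP. IL1B was detected on 6, exactly those with CDDP. CXCL3 was detected on 2 arrays, and so was the only member left out of the test, which took probes detected on at least 3 arrays. Because TNF and IL1B passed that filter only through the groups in which they were high, counts over the 9 tested genes describe them and do not stand as evidence for the list. Counts over the further gene lists below are read in the same way. Some genes there were also detected on only part of the arrays, such as SOCS1 on 7, TRAF1 on 6 and IL12A and ARID5A on 5.

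**Figure D1:**
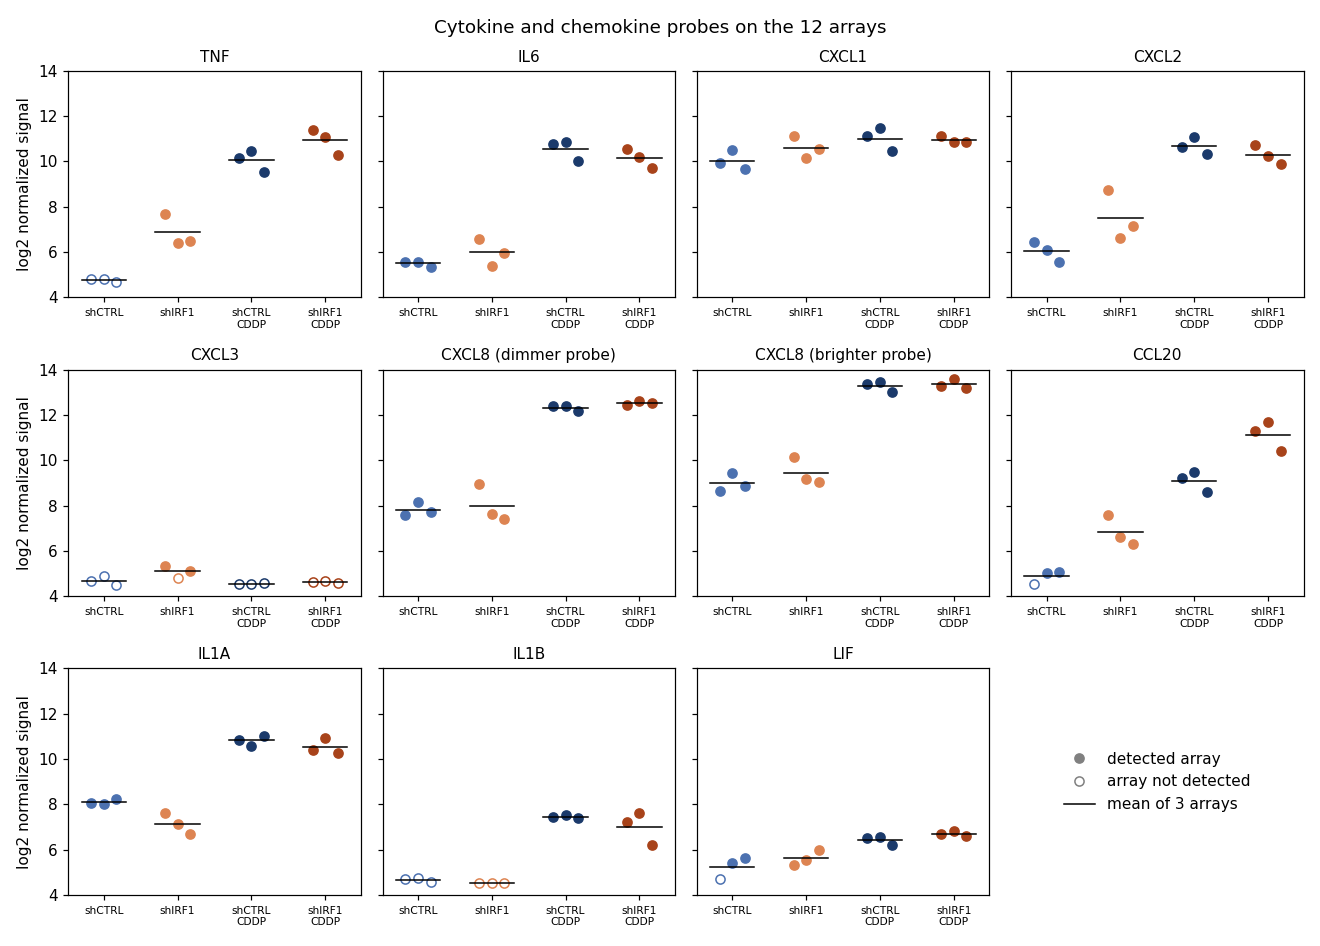
Log2 normalized level of each of the 11 probes of the 10 genes (panels, y axis) in the 4 groups (x axis), with 1 point per array, open where the probe was not detected, and a bar at the group mean. TNF and IL1B start among undetected probes under shCTRL and lie above 9 and 6 with CDDP, CXCL1 moves little, and CXCL3 stays near the detection limit throughout.

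CDDP was accompanied by higher levels of nearly all of these genes under both shRNAs. Under shCTRL 9 of the 9 tested genes rose, with a median change of 4.21 on the log2 scale, where 27.0% of all 17988 tested features were called (13.5% higher), with a median of 0.04. The arrays with and without CDDP did not overlap for 8 of the 9, as was so for 40.2% of all features. Of the 9, 8 rose on arrays labelled shIRF1, with a median of 3.37, where 22.0% of all features were called (10.5% higher), with a median of 0.02, and 8 did not overlap, against 36.9% of all features. CXCL1 was the gene that did not pass, and the gene whose arrays overlapped in both comparisons. Over the 5 genes detected on all 12 arrays, 5 rose under shCTRL and 4 on arrays labelled shIRF1. In whole-culture RNA, more cells making a message and more message per cell cannot be told apart.

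TNF, the cytokine that starts many inflammatory responses, went from below detection to a bright signal. Its levels under shCTRL were 4.82, 4.83 and 4.70, all undetected, and with CDDP 10.13, 10.48 and 9.55. Against the lowest detected values of the shCTRL arrays this is at least 35.5-fold higher on the normalized scale. The fitted log2 change was 5.27 (interval 4.55 to 5.99, limma adjusted p = 7.78e-08). Arrays labelled shIRF1 read 7.70, 6.42 and 6.47, and with CDDP 11.40, 11.09 and 10.30, a rise of 16.8-fold (log2 4.07, SE 0.34, limma adjusted p = 8.92e-07). The groups thus ranked from shCTRL through shIRF1 to the CDDP groups without overlap, except that the CDDP groups overlapped each other.

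IL1A, a form of interleukin-1 that is active without processing and is released by damaged cells, was present from the outset. It measured 8.06, 8.02 and 8.26 under shCTRL and 10.85, 10.59 and 11.03 with CDDP, a rise of 6.53-fold (log2 2.71, SE 0.23, limma adjusted p = 9.34e-07). With the shIRF1 label it measured 7.60, 7.15 and 6.71, and with CDDP 10.41, 10.92 and 10.25, a rise of 10.4-fold (log2 3.37, SE 0.23, limma adjusted p = 1.83e-07). The arrays with CDDP all lay above those without.

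IL1B, the form of interleukin-1 that needs cleavage by caspase-1, was undetected without CDDP under either shRNA, at 4.73, 4.74 and 4.58 under shCTRL and at 4.53, 4.52 and 4.54 with the shIRF1 label. With CDDP it measured 7.43, 7.55 and 7.41 under shCTRL, at least 5.90-fold higher on the normalized scale (fitted change, limma adjusted p = 2.27e-06). The shIRF1 label with CDDP gave 7.23, 7.63 and 6.19, at least 4.32-fold higher on that scale (fitted change, limma adjusted p = 9.25e-06). The third of these arrays lay well below the others, and the SD was 0.75 against 0.07 under shCTRL with CDDP.

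IL6, which drives acute-phase and STAT3 signalling, was close to the detection limit before treatment and among the largest rises after it. It measured 5.58, 5.57 and 5.36 under shCTRL and 10.79, 10.85 and 10.03 with CDDP, a rise of 33.3-fold (log2 5.06, SE 0.29, 95% confidence interval 4.43 to 5.68, limma adjusted p = 4.1e-08). The arrays labelled shIRF1 read 6.59, 5.39 and 5.97, and with CDDP 10.53, 10.19 and 9.72, a rise of 17.9-fold (log2 4.16, SE 0.29, limma adjusted p = 2.04e-07). The groups without CDDP overlapped each other, as did the groups with it. Its relative LIF, which keeps embryonic stem cells undifferentiated in mouse, moved less. LIF measured 4.70 (undetected), 5.40 and 5.65 under shCTRL and 6.52, 6.58 and 6.23 with CDDP, a rise of 2.29-fold (log2 1.20, SE 0.24, limma adjusted p = 0.00141). With the shIRF1 label LIF measured 5.32, 5.55 and 5.98, and with CDDP 6.70, 6.83 and 6.59, a rise of 2.13-fold (log2 1.09, SE 0.24, limma adjusted p = 0.00356). No array with CDDP reached down to any array without it.

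The neutrophil chemokines split. Of CXCL1, CXCL2 and CXCL3, whose sequences before the start are printed above, CXCL2 rose most. CXCL2 measured 6.46, 6.09 and 5.58 under shCTRL and 10.63, 11.09 and 10.33 with CDDP, a rise of 24.9-fold (log2 4.64, SE 0.41, limma adjusted p = 1.12e-06). With the shIRF1 label CXCL2 measured 8.72, 6.64 and 7.16, and with CDDP 10.73, 10.24 and 9.90, a rise of 6.87-fold (log2 2.78, SE 0.41, limma adjusted p = 0.00016). Array 1 of shIRF1 was the high one, and without it the log2 change was 3.39 (limma adjusted p = 8.14e-06).

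CXCL1 was already at a high level without CDDP and changed least. It measured 9.92, 10.51 and 9.65 under shCTRL and 11.12, 11.47 and 10.44 with CDDP, with overlap between the groups, a rise of 1.97-fold (log2 0.98, SE 0.29, 95% confidence interval 0.36 to 1.61, limma adjusted p = 0.0207). The call was lost without shCTRL array 1 (0.93, adjusted p = 0.0673), shCTRL array 3 (0.79, 0.0966), shCTRL CDDP array 1 (0.93, 0.0577) or shCTRL CDDP array 2 (0.75, 0.104), and without the detection filter (adjusted p = 0.0582). With the shIRF1 label CXCL1 measured 11.12, 10.13 and 10.53, and with CDDP 11.11, 10.84 and 10.85. That difference of 0.34 had an interval from -0.28 to 0.96 and did not pass (limma adjusted p = 0.477).

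CXCL3 hardly left the background. It measured 4.67, 4.90 and 4.50 under shCTRL, and 4.54, 4.54 and 4.57 with CDDP, all undetected. The shIRF1 label gave 5.35, 4.82 and 5.11, detected on arrays 1 and 3, and with CDDP 4.61, 4.66 and 4.57, undetected. Against the lowest detected values of the shIRF1 CDDP arrays, the shIRF1 mean was 1.19-fold higher, but it includes the undetected array 2. In a model without the detection filter the fitted log2 change with CDDP there was -0.48 (SE 0.14, limma adjusted p = 0.0496). These values lie near the detection limit, so a fall of CXCL3 is not read from them. CXCL3 was the 1 member with no detected array under CDDP. Whether the probes of these close relatives bind each other's messages was not tested.

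CXCL8, the main human neutrophil attractant (interleukin-8), was among the brightest probes of the arrays with CDDP. Its brighter probe measured 8.65, 9.43 and 8.85 under shCTRL and 13.36, 13.46 and 13.03 with CDDP, a rise of 19.8-fold (log2 4.30, SE 0.28, limma adjusted p = 7.78e-08). The arrays labelled shIRF1 gave 10.15, 9.19 and 9.02, and with CDDP 13.28, 13.58 and 13.21, a rise of 15.0-fold (log2 3.90, SE 0.28, limma adjusted p = 2.04e-07). With CDDP its raw signal was 8419 to 14090, where the brightest probe of those arrays read 12620 to 16820 and 0.0423% to 0.482% of probes were brighter. Whether the brighter probe saturates there was not tested. The dimmer probe of CXCL8 rose by 4.49 (SE 0.31) under shCTRL, close to the brighter probe. On arrays labelled shIRF1 it rose by 4.52 (SE 0.31), more than the 3.90 of the brighter probe. The difference between these changes was therefore 0.03 by the dimmer probe and -0.40 by the brighter one, and neither passed. Limma adjusted p-values of the dimmer probe were 1.43e-07 and 1.77e-07.

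CCL20, the ligand of CCR6, rose with CDDP under both shRNAs. It measured 4.53 (undetected), 5.02 and 5.08 under shCTRL and 9.20, 9.46 and 8.58 with CDDP, a rise of 18.4-fold (log2 4.21, SE 0.35, limma adjusted p = 5.82e-07). Arrays labelled shIRF1 gave 7.57, 6.61 and 6.30, and with CDDP 11.27, 11.67 and 10.43, a rise of 19.6-fold (log2 4.30, SE 0.35, limma adjusted p = 7.05e-07). The difference between these changes was 0.09, with an interval from -0.96 to 1.14 (limma adjusted p = 0.978). Its size depended on the background correction: without it the rises were 2.43 and 3.49, a difference of 1.06 (adjusted p = 0.415). CCL20 was the 1 gene of the list whose 4 groups did not overlap at all, in the order shCTRL, shIRF1, shCTRL with CDDP, shIRF1 with CDDP.

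**Figure D2:**
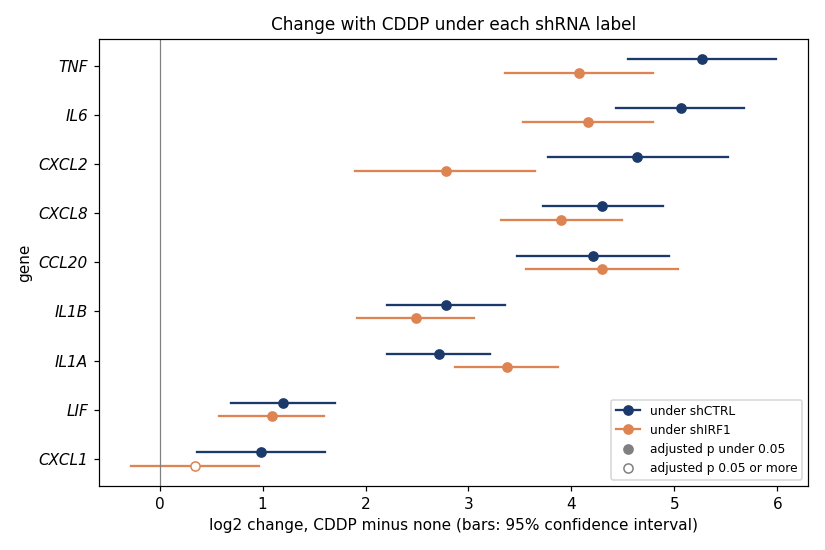
Log2 change with CDDP of the 9 tested genes (y axis) under shCTRL and on arrays labelled shIRF1, as points with 95% confidence intervals, open where the limma adjusted p was 0.05 or more. The points run from 5.27 for TNF, the fitted value of a gene undetected without CDDP, to 0.98 for CXCL1 under shCTRL, and the only open point is CXCL1 on arrays labelled shIRF1, at 0.34.

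The sizes of the CDDP changes depended on the background correction. Under shCTRL the log2 changes without background correction were 3.32 for TNF, 3.57 for IL6, 3.47 for CXCL2, 2.43 for CCL20, 1.24 for IL1B and 0.47 for LIF. For the shIRF1 label they were 3.28 for TNF, 2.98 for IL6, 3.49 for CCL20, 2.74 for IL1A, 1.06 for IL1B and 0.48 for LIF. All of these still passed. In each CDDP group 1 array stood low: array 3 had the lowest level of 8 of the 9 tested genes under shCTRL with CDDP, and array 3 of shIRF1 with CDDP was also lowest for 8. With both left out together, no call of a member in either CDDP comparison was lost.

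No member passed the test of whether its response to CDDP differed between the shRNA labels. The difference between the responses (arrays labelled shIRF1 minus shCTRL) passed for 0 of the 9 genes in limma, where 0.0667% of all features passed, and 3 of the 9 had an unadjusted p under 0.05. For CXCL2 it was -1.86 (SE 0.58, interval -3.10 to -0.62, limma adjusted p = 0.419), and without shIRF1 array 1 it was -1.25 (adjusted p = 0.587). For IL6 it was -0.90 (SE 0.42, limma adjusted p = 0.611). The remaining one was TNF, whose shCTRL arrays without CDDP were undetected, so that its difference of -1.20 is not read as a difference in response. IL1A had the opposite sign, at 0.66 with an interval from -0.04 to 1.37 (limma adjusted p = 0.639).

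Without CDDP, the arrays labelled shIRF1 differed from shCTRL for 4 of the 9 tested genes: TNF, CCL20 and CXCL2 were higher and IL1A was lower. Among all features 5.84% were called (3.10% higher and 2.75% lower), and the members' median difference was 0.48 against 0 for all features. Arrays did not overlap for 5 of the 9, IL1B among them although undetected, and for 25.1% of all features. This comparison shares its shCTRL arrays with the CDDP comparison under shCTRL. TNF was at least 3.89-fold higher on the normalized scale, set against the lowest detected values of the shCTRL arrays. All 3 arrays labelled shIRF1 were detected and none of the shCTRL arrays. The fitted log2 difference of TNF was 2.08 (interval 1.35 to 2.80, limma adjusted p = 0.00135). CCL20 was 3.87-fold higher (log2 1.95, SE 0.35, interval 1.21 to 2.69, limma adjusted p = 0.00274), with a gap from 5.08, the highest shCTRL array, to 6.30, the lowest labelled shIRF1. Without background correction the log2 differences of TNF and CCL20 shrank to 0.86 and 0.82 (limma adjusted p = 0.0761 and 0.0962).

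The calls of CXCL2 and IL1A in that comparison were lost when single arrays were left out. CXCL2 was 2.77-fold higher (log2 1.47, SE 0.41, interval 0.59 to 2.34, limma adjusted p = 0.0478). Its shIRF1 array 1, at 8.72, lay far above the other arrays. Without that array the difference was 0.86 (limma adjusted p = 0.198). The CXCL2 call was also lost without shCTRL array 1 (1.68, adjusted p = 0.0631), shCTRL array 2 (1.49, 0.113), shCTRL array 3 (1.24, 0.199) or shIRF1 array 3 (1.64, 0.0583). It was lost too, with the difference still at 1.47, without shCTRL CDDP array 1 (0.0573) or 2 (0.0533) and without shIRF1 CDDP array 1 (0.0507), 2 (0.0664) or 3 (0.0556), which enter only the shared estimate of spread. IL1A was 1.95-fold lower (log2 -0.96, SE 0.23, interval -1.46 to -0.46, limma adjusted p = 0.0233). Its arrays did not overlap. The IL1A call was lost without shCTRL array 1 (-0.99, adjusted p = 0.0644), 2 (-1.01, 0.055) or 3 (-0.89, 0.1), without shIRF1 array 2 (-0.96, 0.0625) or 3 (-0.74, 0.105), and with median scaling (-0.98, 0.0807). The count of called members fell from 4 to 2 without shCTRL array 1, 2 or 3 or shIRF1 array 3.

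The remaining members did not pass without CDDP. The difference was 0.57 for CXCL1 (interval -0.06 to 1.19), 0.48 for IL6 (-0.14 to 1.11), 0.47 for CXCL8 (-0.11 to 1.06) and 0.37 for LIF (-0.14 to 0.87). For IL1B neither group was detected, so no difference is given. Array 1 of shIRF1 had the highest level of its group for 7 of the 9 tested genes, which included TNF, IL6, CXCL1, CXCL2, CXCL8, CCL20 and IL1A.

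With CDDP, 1 of the 9 tested genes differed between the labels, where 3.85% of all features did (1.65% higher and 2.20% lower), and the members' median was -0.07 against 0. CCL20 was 4.12-fold higher on arrays labelled shIRF1 (log2 2.04, SE 0.35, interval 1.30 to 2.78, limma adjusted p = 0.00289). Its lowest array, 10.43, lay above the highest under shCTRL, 9.46. TNF had a difference of 0.88 (interval 0.15 to 1.60), with overlapping arrays, and did not pass (limma adjusted p = 0.176). LIF differed by 0.26 (interval -0.25 to 0.77, limma adjusted p = 0.608). Arrays did not overlap for 2 of the 9, CCL20 and LIF, and for 21.2% of all features. The other differences were 0.07 for CXCL8, -0.07 for CXCL1, -0.30 for IL1A, -0.39 for CXCL2, -0.41 for IL6 and -0.45 for IL1B, and none passed. CCL20 was thus the 1 member called between the labels both without and with CDDP.

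**Figure D3:**
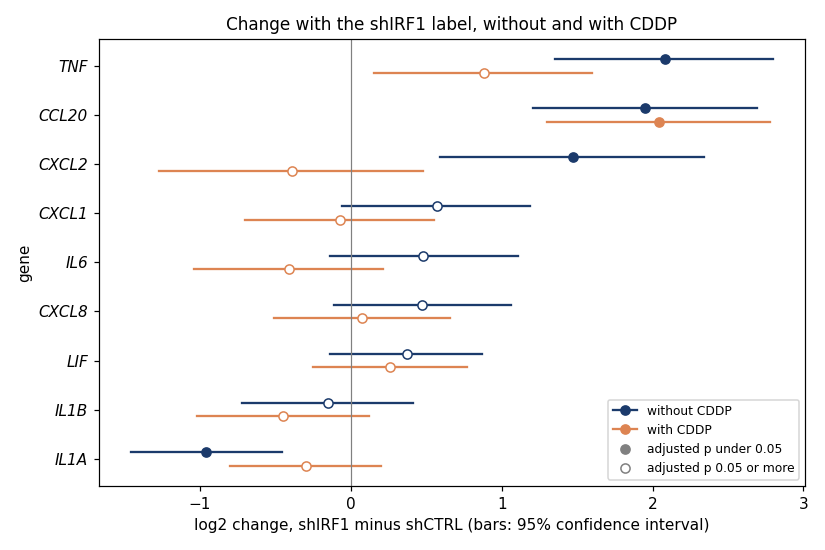
Log2 difference of arrays labelled shIRF1 from shCTRL (x axis) for the tested genes (y axis), without and with CDDP, as points with 95% confidence intervals, open where the limma adjusted p was 0.05 or more. CCL20 is filled in both comparisons, at 1.95 and 2.04, while TNF, CXCL2 and IL1A are filled only without CDDP, and the IL1B point without CDDP sets undetected arrays against undetected arrays.

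Transcription factors of these genes moved with CDDP in the same arrays. Of 15 factors and direct regulators, 9 rose under shCTRL and 9 on arrays labelled shIRF1, and none fell, with median changes of 1.53 and 0.95. Over all features 13.5% and 10.5% rose. IRF1, the target of the shRNA, is counted among them, with rises of 1.70 under shCTRL and 0.78 with the shIRF1 label. Its call with the shIRF1 label was lost in 7 of 23 alternative analyses. NFKBIZ rose by 1.74 under shCTRL, but its other probe changed by 0.18 and did not pass (limma adjusted p = 0.581). ATF3, a stress factor that can restrain inflammatory genes, rose by 5.35 (SE 0.22, limma adjusted p = 3.18e-09) under shCTRL and by 5.12 on arrays labelled shIRF1. FOS, a subunit of AP-1, rose by 3.12 and 2.40, and its partner JUN by 1.53 and 1.68. NFKB2 and RELB, the pair of the alternative NF-kB pathway, rose by 2.86 and 2.64 and by 1.92 and 2.09. NFKBIA, the inhibitor that NF-kB itself induces, rose by 2.07 and 1.89. The subunits RELA and NFKB1 of the classical pathway did not pass, with changes of 0.24 and -0.22 under shCTRL and of 0.95 and 0.02 with the shIRF1 label. With that label the RELA mean was 6.71 without CDDP and 7.66 with it, which is not read as no change.

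Without CDDP, 2 of the 15 factors differed between the labels, where 5.84% of all features did. CEBPD, a C/EBP factor of the acute-phase response, was higher by 1.85 (SE 0.22, limma adjusted p = 0.000118) on arrays labelled shIRF1, and the AP-1 subunit FOSL1 was lower by a log2 difference of -1.15 (SE 0.21, adjusted p = 0.00345). With CDDP, 0 of the 15 passed in limma, where 3.85% of all features did. CEBPD then differed by 0.82 (adjusted p = 0.0545).

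Factors that control the decay of cytokine messages changed in both directions. Under shCTRL 3 of 10 tested rose with CDDP and 2 fell, where 13.5% of all features rose and 13.5% fell. The shIRF1 label had 1 that rose and 1 that fell, where 10.5% of all features rose and 11.5% fell. ZFP36 (tristetraprolin), which marks TNF and other cytokine messages for decay, rose by 2.23 under shCTRL (SE 0.23, limma adjusted p = 3.77e-06) and by 1.61 on arrays labelled shIRF1 (adjusted p = 0.000101). HNRNPD (AUF1), another protein that binds such tails, fell by 0.96 and by 0.74. ZC3H12A, a ribonuclease that cuts the IL6 message, rose by 1.16 under shCTRL. Without CDDP, ZFP36 was higher on arrays labelled shIRF1 by 1.33 (limma adjusted p = 0.00184), and MAPKAPK2, the kinase that restrains ZFP36, was lower by a log2 difference of -0.97 (adjusted p = 0.0035).

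Of 11 receptor genes of these ligands 7 were tested, and none of the 7 passed as higher with CDDP. TNFRSF1B, IL6R, CXCR1 and CXCR2 were detected on too few arrays. With CDDP 2 of the 7 fell under shCTRL, where 13.5% of all features fell, and 3 on arrays labelled shIRF1, where 11.5% fell. The weakest of those 3 calls was IL1RAP (-0.84, limma adjusted p = 0.049), which was lost in 15 of 22 alternative analyses. Its other tested probe changed by -0.09 and did not pass (limma adjusted p = 0.883). IL1R1, the signalling receptor of interleukin-1, fell from 6.65 to 5.22 under shCTRL (log2 -1.43, SE 0.25, limma adjusted p = 0.000496) and from 7.84 to 5.86 on arrays labelled shIRF1 (-1.98, adjusted p = 3.75e-05). TNFRSF1A, the main TNF receptor, fell from 9.23 to 8.06 on arrays labelled shIRF1 (-1.17, SE 0.18, limma adjusted p = 0.000196). Under shCTRL TNFRSF1A differed by -0.54 (adjusted p = 0.0334). That call was lost without shCTRL array 2 (-0.48, 0.11) or 3 (-0.49, 0.106) or without shCTRL CDDP array 1 (-0.58, 0.0501), 2 (-0.48, 0.107) or 3 (-0.56, 0.0528), with median scaling (-0.65, 0.131) and with only the groups compared (-0.54, 0.0518). IL6ST (gp130) changed by 0.45 and 0.43, and neither passed (limma adjusted p = 0.0651 and 0.0915). Without CDDP, 2 of the 7 were higher on arrays labelled shIRF1, where 3.10% of all features were. IL1R1 was higher by 1.19 (limma adjusted p = 0.00859), a call lost without shIRF1 array 1 (1.04, adjusted p = 0.0562). TNFRSF1A, at 8.44 under shCTRL and 9.23 with the shIRF1 label, was higher by 0.79 (limma adjusted p = 0.0138). That call was lost in 4 of 23 alternative analyses. The count was 0 without shIRF1 array 1.

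Genes of receptor signalling and feedback rose in part. The list holds signal-carrying adaptors and kinases as well as feedback genes. Of 18 tested, 8 rose and 2 fell under shCTRL, and 6 rose on arrays labelled shIRF1. Those that fell were JAK1 (-1.23, limma adjusted p = 0.0319) and STAT3 (-0.63, 0.0215), each call lost in 7 of 23 alternative analyses. TRAF1 is counted as a rise under both shRNAs, but its other probe changed by 0 and -0.3, and neither passed. Over all features 13.5% rose and 13.5% fell under shCTRL, and 10.5% rose with the shIRF1 label. The total under shCTRL fell from 10 to between 4 and 9 when single arrays were left out: 4 without shCTRL array 1, 5 without shCTRL array 2 or shCTRL CDDP array 2, and 6 without shCTRL array 3 or shCTRL CDDP array 1. TNFAIP3 (A20), the ubiquitin-editing brake on NF-kB, rose by 4.34 under shCTRL (SE 0.26, limma adjusted p = 4.63e-08) and by 3.85 on arrays labelled shIRF1 (adjusted p = 1.6e-07). SOCS1, which blocks cytokine receptor kinases, was undetected under shCTRL and at least 2.61-fold higher with CDDP on the normalized scale. It rose by 1.57 on arrays labelled shIRF1. IRAK2, a kinase of the interleukin-1 receptor pathway, rose by 0.74 and 1.77.

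**Figure D4:**
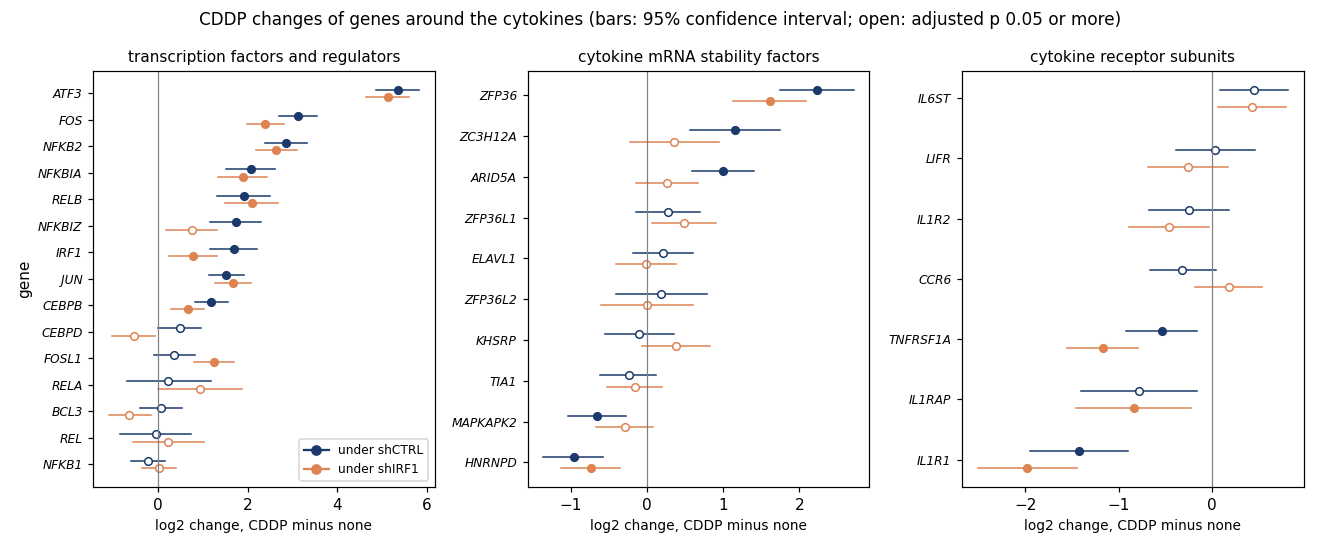
Log2 change with CDDP (x axis) of the tested transcription factors, message stability factors and receptors of the cytokines (y axis), under shCTRL and on arrays labelled shIRF1, as points with 95% confidence intervals, open where the limma adjusted p was 0.05 or more. ATF3 lies above 5 under both shRNAs, RELA and NFKB1 are open, and IL1R1 lies farthest to the left, at -1.43 and -1.98.

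Most of the further cytokines and chemokines tested did not pass. Of 49 further cytokines and chemokines listed, 47 are on the array and 21 were tested. With CDDP 5 rose and 0 fell under shCTRL in limma, and 5 rose and 1 fell on arrays labelled shIRF1, with median changes of 0.11 and 0.30. Over all features 13.5% rose under shCTRL, and 10.5% rose and 11.5% fell with the shIRF1 label. Under shCTRL IL12A, a subunit of interleukin-12, went from undetected to at least 2.06-fold higher on the normalized scale. IL11, a gp130 cytokine, rose there by 1.04 and LTA, a relative of TNF, by 1.00. CXCL16, a membrane-bound chemokine, rose with CDDP under shCTRL by 1.09 (SE 0.17, limma adjusted p = 0.000159). Without CDDP, 3 of the 21 were higher on arrays labelled shIRF1, where 3.10% of all features were, among them CXCL16 by 1.11 (limma adjusted p = 0.000651). That count was 1 without shCTRL array 1, shCTRL array 3 or shIRF1 array 1. The count of 6 called on arrays labelled shIRF1 with CDDP was 2 without shIRF1 array 2 and 3 without shIRF1 array 3 or shIRF1 CDDP array 2.

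The summed log2 level of the 14 leukocyte and stromal markers on the array was 70.6 to 72.1 under shCTRL and 72.0 to 73.7 with CDDP. It was 68.2 to 70.0 on arrays labelled shIRF1 and 69.9 to 70.8 with CDDP. Of these markers CD14 rose with CDDP under shCTRL, by 1.22 (limma adjusted p = 0.00135), and 4 were detected on no array. Without CDDP 2 of the 5 tested, CD68 and COL1A1, were lower with the shIRF1 label, where 2.75% of all features were (1 when any single array of those groups was left out). The other probes of CD68 differed by 0.14 and -0.16, and neither passed. Of the 7 markers of the line, 3 fell with CDDP under shCTRL and 4 on arrays labelled shIRF1, where 13.5% and 11.5% of all features fell. They were KRT19, PAX8 and ERBB2, and with the shIRF1 label also EPCAM. Under shCTRL the other tested probes of PAX8 (-0.49 and -0.38) and of ERBB2 (-0.16) did not pass. With the shIRF1 label another PAX8 probe passed (-1.56), but the last PAX8 probe (-0.45) and that of ERBB2 (-0.35) did not. Both other EPCAM probes passed (-0.98 and -1.08). The part of either marker list in the cytokine changes was not tested.

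The genes whose levels followed the mean of the 9 tested members most closely were found by the root mean square difference over the 12 arrays, after each gene was centred on its shCTRL mean. They were NPTX2, a secreted neuronal pentraxin (0.43), BCL6, a transcriptional repressor (0.49), DDIT3, the stress factor CHOP (0.50), the small nuclear RNA gene RNVU1-7 (0.52) and PMAIP1, the cell death protein NOXA (0.52). The mean of the members stood 0.70 above shCTRL on arrays labelled shIRF1, 3.46 under shCTRL with CDDP and 3.64 on arrays labelled shIRF1 with CDDP. NPTX2 stood at 0.38, 3.94 and 3.54 and PMAIP1 at 0.16, 3.90 and 3.53 in the same order. Among the members themselves CXCL8 lay nearest to their mean (0.60) and CXCL1 farthest (1.86).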

How the data were processed

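Per the file headers, the deposited table gives an average bead signal for every probe of the 12 arrays, an intensity on a linear scale without scaling between arrays, together with a deposited detection p-value against negative controls. BeadStudio 2 is named in the submitters' processing notes. A second deposited intensity, in the authors' series matrix, is a linear function of that signal on each array (r = 1), with a factor of 1.37 to 2.66 and a constant of -116 to -14.2, and what set these is unknown. Its column medians ran from 116 to 132. All columns belonged to the 12 samples.

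Probe names came from the platform annotation. Of 47313 probes, 30109 have 1 symbol, 8 have several and 17196 are unnamed here, and 30070 symbols were updated through RefSeq. Normalization used neqc (limma 3.58.1, R 4.3.3: normexp background correction from the detection p-values, offset 16, quantiles, log2). Probes with detection p under 0.05 on at least 3 arrays were kept (22260), and the brightest probe of a symbol was used, which left 17988 features (12492 named). A limma model (lmFit, eBayes) of the 4 group means took in all 12 arrays, with 8 residual and 7.18 prior degrees of freedom. Calls are two-sided, with Benjamini-Hochberg adjusted p under 0.05 over all features, in 5 comparisons. For each single probe of CXCL8, p-values came from the same model over probes. Same-group arrays correlated at r = 0.974 to 0.987 and others at 0.921 to 0.979, mean signals were 259 to 388, and the number of arrays limits the precision.

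Where no array of a group detected a gene, its change is a bound: the bright group's mean against the dim group's mean, in which each array counts with its own value or, if that is lower, with its lowest detected value. Such a bound compares group means on the normalized scale and is not a confidence limit. A p-value beside it belongs to the fitted change. The members and the further lists were chosen with earlier results of these data known. Named genes are the members, IRF1, the largest called genes of each further list (at most 6 per list and comparison, not all of which are printed) and the 5 genes nearest to the members' mean. RELA, NFKB1, IL6ST and CEBPD with CDDP are named beside them although not called, and KRT7 and the other markers as a check of the line. Motifs were searched in RefSeq promoters, where LIF has no entry. Alternatives were the background correction, the scaling, the matrix values, the filter, the probe rule, the groups fitted, a variance trend, array weights, a replicate block and each array left out, and, added after the data were seen, both CDDP arrays numbered 3 left out together. The model was tested on simulated data.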

Additional observations from a re-analysis of the deposited data

How the results depend on the processing

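The CDDP calls of TNF, IL6, CXCL2, CXCL8, CCL20, IL1A, IL1B and LIF under both shRNA labels held in every alternative that tested the gene, and the difference between responses was called for 0 members in limma in all 23. The number of members called between the labels without CDDP was 4, became 1 without background correction, 2 with detection at 0.01 on all 12 arrays, and 2 to 4 with single arrays left out. With that stricter filter 5 members were tested, and 5, 4 and 0 were called for CDDP under shCTRL, CDDP on arrays labelled shIRF1 and the labels with CDDP, fewer by construction. The CXCL2 call without CDDP was lost in 15 of 23 alternatives (adjusted p 0.00724 to 0.199), among them the series matrix values (1.07, 0.0514), no detection filter (0.147), only the groups compared (0.0985) and both CDDP arrays numbered 3 left out (0.0586). The IL1A call was lost in 6 (0.0082 to 0.105) and the CXCL1 call with CDDP in 5 (0.00494 to 0.104). Adjusted p ran from 2.45e-05 to 0.0761 for TNF and from 0.000176 to 0.0962 for CCL20 without CDDP. Signs turned only for differences that were never called. The CCL20 response difference (0.09) was -0.01 with array weights, 1.06 without background correction, 0.81 in the series matrix values and -0.18 to 0.46 with single arrays left out. That of IL1B (-0.29) was -0.60 to 0.12, and 0.09 without both arrays numbered 3, and that of LIF (-0.11) was 0.01 without background correction, 0.02 with median scaling and -0.31 to 0.17. Between the labels with CDDP, CXCL1 (-0.07) ran from -0.36 to 0.16 and CXCL8 (0.07) from -0.05 to 0.16 with single arrays left out. Over all features, the 1051 calls between the labels without CDDP became 500 with median scaling and 626, 636 and 585 without shCTRL array 1, shCTRL array 3 or shIRF1 array 1. The 692 with CDDP became 310 with median scaling, 329 with only the groups compared, 323 without both arrays numbered 3, and 394 and 356 without shIRF1 CDDP array 1 or 3. The 12 calls of the response difference became 2 to 22. The 4849 and 3960 CDDP calls became 2984 and 2228 with median scaling. The cause was not tested. The labels do not say that a number marks a shared batch. Deviations of same-numbered arrays correlated at r -0.03 to 0.24 over 18 pairs, 9 of them over 0.1, against -0.23 to 0.10 over the other 36, and 10 of 12 arrays were nearest to their own number. Arrays numbered 1 also had the lowest mean signals (259 to 282 against 300 to 388). This is a hint from the data that the numbers mark something shared. The labels state no pairing, and not every pair passed 0.1, so the main model left the arrays unpaired. Its p-values and intervals therefore leave out any such sharing. With the replicate block 9, 8, 0, 1 and 4 members were called for CDDP under shCTRL, CDDP under shIRF1, the response difference, the labels with CDDP and the labels without, as in the unblocked model. Signals near the detection limit bound what can be said of CXCL3, of LIF and of TNF, IL1B and CCL20 without CDDP.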

Other observations

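The receptor CCR6, which binds CCL20, and the cytokine IL10 each have probes that read very different levels. These genes were chosen after their values were seen. Of 3 probes for CCR6, 1 was detected on all 12 arrays at 12.93 to 13.59, brighter than 99.7% of probes, while the others were detected on 0 and 6 arrays, at 4.28 to 4.65 and 4.46 to 5.80. Of 2 probes for IL10, 1 was detected on all 12 arrays at 9.79 to 11.32 and the other on 0, at 4.29 to 4.58. Which of these probes reads its gene was not tested.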
